A study of Caenorhabditis elegans with 2 samples.

Results

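The genes described here encode the vacuolar proton pump and the main protein-degrading enzymes of the lysosome in the nematode Caenorhabditis elegans. They were the rows of the deposited expression table named vha, asp, cpr, cpl, cpz, lmp or scav with a number, together with unc-32 and cup-5. This gave 44 of 19874 genes: 20 genes of the vacuolar ATPase (V-ATPase), 6 aspartyl protease genes, 9 cysteine protease genes, 6 scav genes, 2 lmp genes and cup-5. The naming rule uses no measured value, but these families were picked with earlier results of these data known. RNA was sequenced from 2 samples, replicates 1 and 2 of 1 strain with the genotype daf-2(e1370);daf-12(m20), grown as mixed-stage cultures at 20 °C on OP50 bacteria. The daf-2 gene encodes the insulin/IGF-like receptor and daf-12 a nuclear hormone receptor, and both samples carry both alleles. No wild type was analysed, so a level given below cannot be read as raised or lowered by either allele. The labels leave unstated whether the 2 samples are separate cultures, and the spread between them may be technical in part.

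Lysosomes digest proteins, lipids, sugars and nucleic acids in an acidic lumen. The acid is made by the V-ATPase, a rotary pump whose V1 sector hydrolyses ATP in the cytosol and whose V0 sector carries protons through the membrane. The low pH lets aspartyl proteases of the cathepsin D type and cysteine proteases of the cathepsin B, L and Z types mature and work. In the worm much of this machinery serves the intestine, where food and yolk proteins are handled, and V-ATPase also acts in the epidermis, the excretory cell and neurons. Some of the proteases are also secreted.

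Values are RPKM, reads scaled to the length of the gene and to the reads of its library, as the authors gave them, so levels can be set beside each other per length. Depths estimated from the steps between low values were 10560000 reads in replicate 1 and 14650000 reads in replicate 2. For a coding length of 1 kb, 3 reads, taken as the floor, equal 0.284 RPKM (replicate 1) or 0.205 RPKM (replicate 2). Intervals and floors cover counting error only. Markers of several tissues were present at a mean of at least 1 RPKM: 8 of 8 intestinal, 5 of 5 epidermal, 3 of 3 excretory, 6 of 6 neuronal and 4 of 4 muscle genes. Among germline and embryo markers 4 of 5 sperm genes and 6 of 8 oocyte or embryo genes reached that level. The lowest of these 8 were end-1 at 0 and 0.1 RPKM in replicates 1 and 2, end-3 at 0.26 and 0.28 RPKM, and pes-10 at 1.94 and 1.73 RPKM. Of all genes 72% had a mean of at least 1 RPKM, so marker counts near that share do not show that a tissue contributed. Each value averages over the tissues sampled and, as the cultures were mixed-stage, over stages. A low level from few cells cannot be told apart from little RNA per cell.

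As a group the 44 genes were abundant, but the scav genes, lmp-2, cup-5, unc-32, vha-18, vha-7, cpr-3 and cpr-2 had means below 100 RPKM. A mean of at least 1 RPKM was found for 43 of the 44 genes, against 72% of all genes. A mean of at least 100 RPKM was found for 31 of the 44 (70.5%), against 7.63% of all genes. With the 12 family genes listed under sequence names added, the count was 35, a smaller share of the larger set. At least 1000 RPKM was reached by 7 of the 44, against 205 of all genes (1.03%). The median over the 44 genes was 252.8 RPKM, with 248.2 in replicate 1 and 257.5 in replicate 2, beside a median of 6.17 RPKM over all genes and 14.1 RPKM over genes at 1 RPKM or more. Together the 44 genes held 1.94% of the summed RPKM in replicate 1 and 1.98% in replicate 2. Of their own sum, 47.4% came from the 6 highest genes, 3 aspartyl proteases, 2 cysteine proteases and the proteolipid gene vha-2.

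The plot of cumulative distributions sets these groups beside all genes. The 6 aspartyl proteases named asp in the table lie farthest to the right, with a median of 1399 RPKM. Behind them come the cysteine proteases at 401 RPKM and the V-ATPase genes at 284.4 RPKM, whose curves cross. This order holds for the named genes: with family genes that the table lists under sequence names added, the medians were 216.6 RPKM for aspartyl proteases, 401 RPKM for cysteine proteases and 271.5 RPKM for V-ATPase genes. The scav genes have a median of 29.0 RPKM and lie nearer to the curve of all genes.

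**Figure D1:**
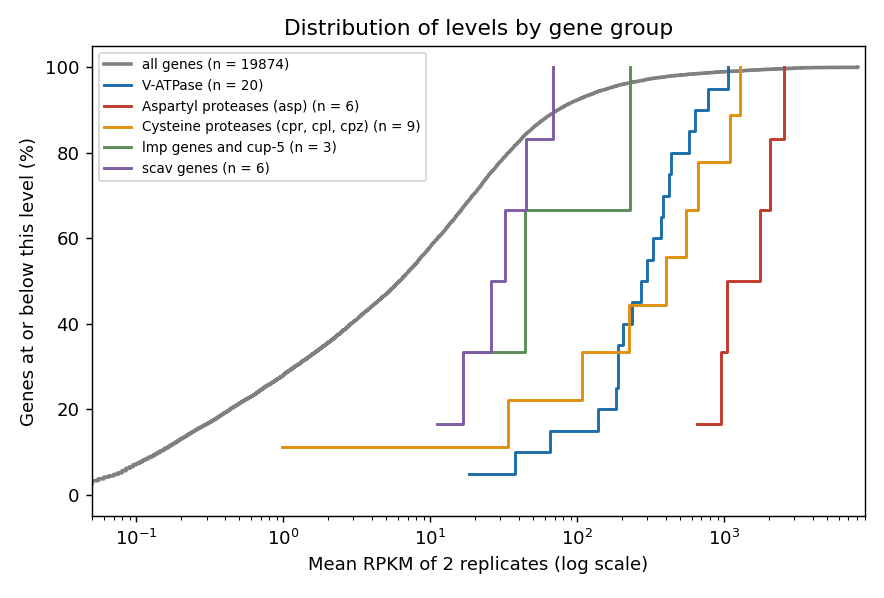
Share of genes at or below a given mean RPKM of 2 replicates (x axis, log scale), for all 19874 genes (grey) and for the 5 groups of genes (colours). All 6 aspartyl proteases lie at 648.5 RPKM or more, while the 6 scav genes lie between 11.04 and 68.8 RPKM.

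V-ATPase genes were all detected, at levels that differed 57.9-fold between the highest and the lowest of the 20. Their median was 277.4 RPKM in replicate 1, beside 291.5 RPKM in replicate 2, and 17 of 20 reached 100 RPKM. They held 0.645% and 0.648% of the summed RPKM. The 9 genes of the V1 sector had a median of 368 RPKM, and the 11 genes of the V0 sector one of 189 RPKM. With the genes of 1 subunit summed, the medians were close, at 375 RPKM over 8 V1 subunits and 367 RPKM over 6 V0 subunits. The 2 sectors had nearly equal sums: V1 genes added up to 3512 ± 29.0 RPKM and V0 genes to 3301 ± 88.0 RPKM (SD, n = 2).

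In V1, a core of A and B subunits hydrolyses ATP and turns a central shaft, while outer stalks hold the core in place. vha-13, the A subunit that binds and hydrolyses ATP, was at 359.4 and 377.1 RPKM in replicates 1 and 2. vha-12, the B subunit that pairs with it, was at 292.9 and 301.9 RPKM. The A gene was thus above its partner in both replicates, with a B to A ratio of 0.808 ± 0.010 (SD, n = 2). spe-5, a second B-subunit gene that is needed for sperm formation and falls outside the naming rule, had 6.74 and 5.89 RPKM, and vha-12 was 47.4 ± 5.5 times as high (SD, n = 2).

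The genes of subunits G, E and F were higher than the A and B genes. vha-10, the G subunit of the outer stalks, was the highest V1 gene, at 788.9 and 771.6 RPKM. vha-8, the E subunit that pairs with G, was at 621.9 and 648.8 RPKM. vha-9, the F subunit of the central shaft, had 571.6 and 573.3 RPKM. These 3 genes stood at 2.12, 1.73 and 1.56 times the level of vha-13. vha-14, the D subunit and the other shaft protein, was at 382.1 and 381.4 RPKM, a ratio to vha-13 of 1.04 ± 0.036 (SD, n = 2). vha-11, the C subunit, which links the sectors and in yeast is released when the pump disassembles, was the lowest of the single-gene V1 subunits, at 199.9 and 209.9 RPKM.

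The H subunit, a regulatory part of V1, has a pair of genes. vha-15 had 234.3 and 234.0 RPKM, and vha-18 had 40.7 and 34.9 RPKM. vha-15 held 86.1 ± 1.3% of the H-subunit RPKM (SD, n = 2), and the pair differed in the same direction in both replicates. Across V1 the summed level per subunit spanned 3.81-fold, with C at 205 RPKM and G at 780 RPKM, and H at 272 RPKM between them.

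In V0, the ring of c subunits turns against the a subunit and carries the protons. vha-2, which encodes a c subunit, was the highest V-ATPase gene, at 1011 and 1114 RPKM. vha-1, another c gene, was at 407.6 and 435.9 RPKM, and vha-3, the third, at 182.7 and 196.1 RPKM. The 3 genes added up to 1674 ± 102 RPKM (SD, n = 2), the largest sum of any subunit and 4.54 ± 0.12 times the level of vha-13. vha-2 held 63.5%, vha-1 25.2% and vha-3 11.3% of this sum. vha-2 and vha-3 are known to encode the same protein, and both had a coding length of 486 bp. How the authors placed reads that match both is not given in the sources used here, so the split between vha-2 and vha-3 is uncertain while their sum is less affected.

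vha-4, the c'' proteolipid that joins the ring, had 262.0 and 281.1 RPKM. vha-16, the d subunit that couples ring and shaft, had 434.6 and 432.3 RPKM. vha-17, the small e subunit, had 340.6 and 315.1 RPKM and was lower in replicate 2. vha-19, the worm counterpart of the accessory protein Ac45, was the lowest V0 subunit at 187.6 and 190.2 RPKM. R03E1.2, which the current annotation calls vha-20 and which corresponds to the prorenin receptor, another accessory protein, stood under its sequence name and outside the naming rule at 222.3 and 240.3 RPKM.

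The 4 genes of the a subunit, the part of V0 that sets where the pump resides, covered a 9.93-fold range. vha-6, the intestinal form that acidifies the gut lumen, had 181.1 and 183.6 RPKM and held 45.0 ± 1.6% of the a-subunit RPKM (SD, n = 2). vha-5, known from the epidermis and the excretory cell, where it also serves secretion, had 145.5 and 132.8 RPKM and held 34.3 ± 1.4%. unc-32, known from neurons, had 67.0 and 64.4 RPKM and held 16.2 ± 0.05%. vha-7, known from the epidermis and uterus, had 19.1 and 17.6 RPKM and held 4.52 ± 0.15%. The order of these 4 genes was the same in both replicates, and no ranges overlapped. Their sum, 405.6 ± 10.1 RPKM, was 1.102 ± 0.065 times the level of vha-13 (SD, n = 2). At most 38 bp of the unc-32 coding sequence lie under a noncoding RNA on the other strand, ZK637.20, whose reads cannot be told apart from those of unc-32 unless counting used strand.

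The plot of subunits shows these sums with the genes of each subunit stacked. Most of the 14 subunits lie between 200 and 650 RPKM, around a median of 375 RPKM. The c subunit stands above all others in both replicates, and G is second. From Ac45 to c the sums spanned 8.86-fold.

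**Figure D2:**
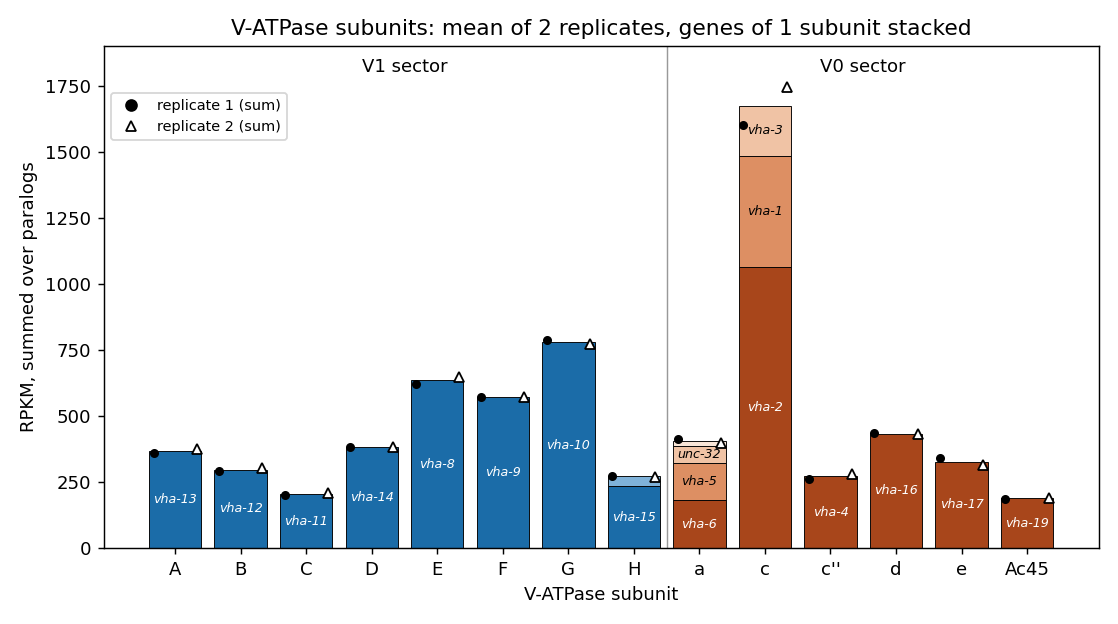
RPKM per V-ATPase subunit (y axis), as the mean of 2 replicates, with the genes of 1 subunit stacked and the V1 sector left of the V0 sector. Points give the sum in each replicate. The c subunit reaches 1602 and 1746 RPKM in replicates 1 and 2, and the thin top segments of H and a are vha-18 and vha-7.

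In the order of V-ATPase genes, 17 of 19 neighbouring genes differed by more than the larger of their replicate SDs. The exceptions were vha-16 beside vha-1, and vha-3 beside vha-19. Shorter V-ATPase genes had higher RPKM. The 8 genes with under 700 bp of coding sequence had a median of 497 RPKM, with a range of 189 to 1063. The 12 longer ones had a median of 197 RPKM and a range of 18.4 to 433 RPKM. Spearman's rho between coding length and RPKM was -0.71 over the 20 genes and -0.74 over the 17 genes left without the c subunits. Both sets keep the 4 a-subunit genes, the longest of the 20, which share the 405.6 RPKM of 1 subunit. How far this sharing enters the trend was not tested. Over the 15 proteases rho was 0.35, in a narrow length range of 921 to 1404 bp, and over 13596 genes at 1 RPKM or more with a coding length it was -0.08. These are descriptions across genes that share both libraries, and a part of library preparation or of the authors' length correction in them was not tested. The plot of level against length shows the fall from the proteolipid and stalk genes at the left to the a-subunit genes at the right, with vha-3, vha-4 and vha-17 below other short genes.

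**Figure D3:**
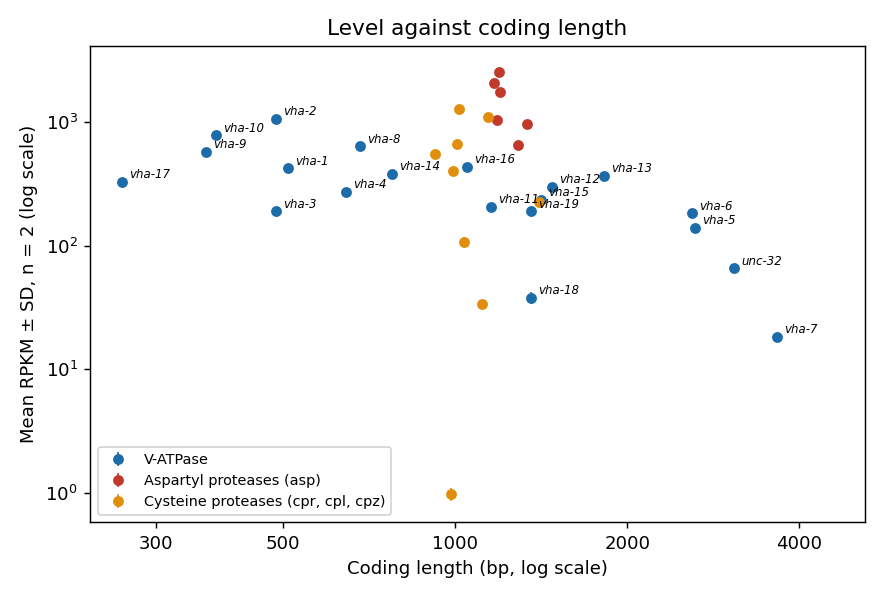
Mean RPKM ± SD of 2 replicates (y axis, log scale) against coding length in bp (x axis, log scale) for the 20 V-ATPase genes, which are named, and for the 6 aspartyl and 9 cysteine proteases. Error bars are mostly smaller than the points. The 4 longest V-ATPase genes, which encode the a subunit, lie between 18.4 and 182 RPKM.

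The 6 genes that the table names asp had the highest median of the 5 groups, an order that turned when asp genes under sequence names were added (216.6 RPKM over 15 genes). Their median was 1369.8 RPKM in replicate 1, beside 1428 RPKM in replicate 2, and the 6 genes held 0.838% and 0.870% of all RPKM, more than the 20 V-ATPase genes together. None of the 6 fell below 637.5 RPKM in either replicate. The levels spanned 3.91-fold, and all 5 steps in their order were larger than the replicate SD.

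asp-1, an aspartyl protease of the intestine, was the highest of the 44 genes, at 2387 and 2688 RPKM, and ranked 63 of all 19874 genes. These values rest on about 30022 and 46900 reads. asp-6 followed at 1980 and 2139 RPKM, and asp-3 at 1743 and 1776 RPKM. asp-3 and asp-4 are known for their part in necrotic death of neurons, and asp-4 is often described as the worm cathepsin D. asp-4 had 994.9 and 919.2 RPKM and was the only one of the 6 that was lower in replicate 2. asp-5 was at 996.9 and 1080 RPKM, so that asp-5 and asp-4 were level in replicate 1 and apart in replicate 2. asp-2 was the lowest, at 637.5 and 659.6 RPKM.

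The naming rule left out 9 further aspartyl protease genes that the table lists under sequence names and the WBcel235 annotation calls asp. They were mostly low. asp-13 (F28A12.4) had 667.5 and 612.8 RPKM, and asp-14 (K10C2.3) had 214.4 and 218.8 RPKM. asp-8 (F59D6.3) had 35.2 and 47.3 RPKM, asp-12 (F21F8.4) had 21.7 and 25.3 RPKM, and the other 5 lay below 2 RPKM in both replicates. asp-7 was listed at 0 in replicate 1, where 3 reads equal 0.249 RPKM, and asp-19 at 0 in replicate 2, where they equal 0.305 RPKM. Of the 15 asp genes measured, 12 had a mean of at least 1 RPKM and 8 a mean of at least 100 RPKM, and the 6 with asp names in the table held 90.7% of their summed RPKM. asp-15 and asp-18 were not analysed here.

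Genes in 1 cluster could differ widely. On chromosome V of WBcel235, asp-6 (8267511 to 8268937, minus strand) and asp-5 (8272385 to 8274044, plus strand) flank asp-12. Their means were 2059 RPKM for asp-6 and 1039 RPKM for asp-5, against 23.5 RPKM for asp-12 between them. The ratio of asp-6 to asp-5 was 1.99 in replicate 1 and 1.98 in replicate 2. asp-1 (19049562 to 19050752, minus strand) lies 6956 bp from asp-16, with 1 coding gene between them. asp-16 had 0.08 RPKM in replicate 1, below its floor of 0.239 RPKM, and 0.63 RPKM in replicate 2, from about 1 and 11 reads. The asp genes are related in sequence, so the split of reads among close copies is uncertain.

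The 9 named cysteine proteases spanned a wide range, although most were abundant. Of the 9 genes 7 reached 100 RPKM and 1 lay below 1 RPKM, with a median of 385.3 RPKM in replicate 1, beside 417.0 RPKM in replicate 2. They held 0.414% and 0.411% of the summed RPKM. All 8 steps in their order were larger than the replicate SD.

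cpl-1, a cathepsin L that is essential for embryos and processes yolk, was the highest at 1270 and 1296 RPKM. cpr-6, of the cathepsin B type, was next at 1104 and 1072 RPKM. The cpl-1 level was 1.18 ± 0.041 times that of cpr-6 (SD, n = 2). cpr-4, a cathepsin B known to be secreted by irradiated cells, had 650.5 and 671.9 RPKM. cpz-1, a cathepsin Z with a part in molting, had 543.5 and 554.7 RPKM, and its paralog cpz-2 had 233.5 and 215.1 RPKM. cpr-1, a cathepsin B known from the gut, had 385.3 and 417.0 RPKM.

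The other cathepsin B genes were lower. cpr-5 had 99.5 and 115.1 RPKM, and cpr-3 had 33.2 and 34.8 RPKM. cpr-2 was the lowest of all 44 genes, at 1.06 and 0.90 RPKM, which stand for about 11 and 13 reads and lie above the floor of 3 reads. F57F5.1, annotated as cpr-9 and listed under its sequence name, was above every cysteine protease that the naming rule found, at 1690 and 1779 RPKM. It was 4.33 ± 0.084 times as high as cpr-1 (SD, n = 2). W07B8.1, annotated as cpr-8, had 7.15 and 7.72 RPKM and lies next to cpr-5 on chromosome V. With both added, the 11 cysteine protease genes summed to 6091 RPKM, of which the 9 named ones held 71.4%.

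The cystatins, inhibitors of cysteine proteases, were abundant as well. cpi-1 had 2291 and 2417 RPKM, above cpl-1 in both replicates. cpi-2, known for a part in oocyte formation, had 353.3 and 357.1 RPKM.

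The lmp and scav genes and cup-5, which encode other proteins of the lysosomal or cell membrane, mostly lay below the proteases. lmp-1, the LAMP-like protein used as a lysosome marker in the worm, had 223.4 and 232.9 RPKM. Its relative lmp-2 had 42.6 and 46.2 RPKM, and lmp-1 was 5.14 ± 0.14 times as high (SD, n = 2). cup-5, the worm mucolipin, a cation channel needed to form lysosomes, had 18.7 and 17.2 RPKM. The scav genes encode relatives of the CD36 and LIMP-2 scavenger receptors, and none of the 6 reached 100 RPKM. scav-1 was the highest, at 67.3 and 70.3 RPKM. scav-3, a LIMP-2 counterpart known to maintain lysosome integrity, had 44.6 and 45.3 RPKM. Below them were scav-2 at 31.2 and 33.0 RPKM, scav-6 at 26.2 and 25.6 RPKM, scav-5 at 16.55 and 16.95 RPKM, and scav-4 at 11.05 and 11.03 RPKM. This order was the same in both replicates, and all 5 steps were larger than the replicate SD.

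**Figure D4:**
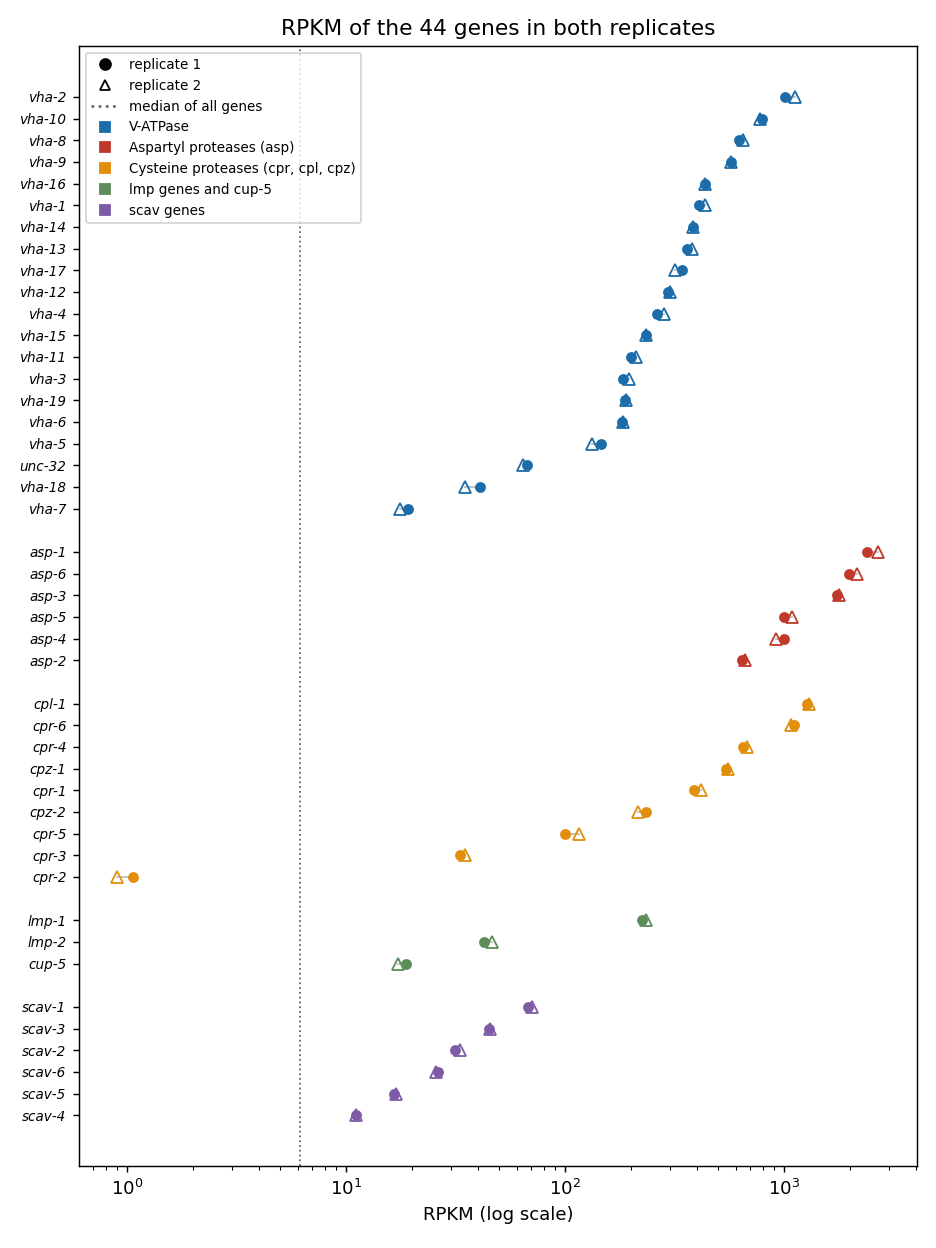
RPKM (x axis, log scale) of the 44 genes in replicate 1 (filled circles) and replicate 2 (open triangles), by group and in order of their mean. The dotted line is the median of all genes, 6.17 RPKM, and only cpr-2 lies to its left.

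The plot of the 44 genes gives the same values on 1 scale. Distances between genes of a family are mostly far larger than the distance between the circle and the triangle of a gene. cpr-2 stands apart from the other cysteine proteases, and vha-7, vha-18 and unc-32 from the other V-ATPase genes.

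Hydrolases, membrane and trafficking genes, and regulators, the 3 further lists given next, had lower medians than the 15 proteases, whose median was 661 RPKM. The sets are unlike: the lists include genes found under sequence names, whereas the 15 proteases leave out the asp and cpr genes listed that way. Of all genes 72% had at least 1 RPKM and 7.63% at least 100 RPKM. Of 33 further hydrolase genes, 31 had at least 1 RPKM and 7 at least 100 RPKM, with a median of 35.4 RPKM. The highest was ctsa-1.1, a serine carboxypeptidase of the cathepsin A type, at 401.4 and 376.2 RPKM. hex-1, the beta-hexosaminidase, had 193.9 and 184.6 RPKM, and pcp-1, a prolyl carboxypeptidase, had 137.2 and 131.3 RPKM. The lowest 3 were ctsa-4.1 at 5.84 and 4.73 RPKM, ctsa-3.2 at 0.94 and 0.45 RPKM, and gba-2, a glucocerebrosidase gene, at 0.18 and 0.13 RPKM.

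Of 21 genes for other membrane proteins and trafficking to lysosomes 19 were found, all at 1 RPKM or more, and 0 of them reached 100 RPKM. The shares of all genes were 72% and 7.63%, and 0 of 19 lies near the second share. The median of the 19 genes was 14.2 RPKM. The cystine exporter ctns-1 was at 66.0 and 62.5 RPKM, the lysine and arginine exporter laat-1 at 38.2 and 39.8 RPKM, and spin-1, of the Spinster family, at 31.9 and 32.8 RPKM. At the low end were spin-4 with 4.2 and 4.25 RPKM, spin-2 with 2.13 and 2.47 RPKM, and ncr-2, a relative of the cholesterol transporter NPC1, with 1.71 and 1.36 RPKM.

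The 15 regulators of lysosomes had a median of 81.0 RPKM, and 4 reached 100 RPKM, beside 7.63% of all genes. mdl-1, a Mad-like transcription factor, had 166.8 and 149.3 RPKM. unc-108, the worm Rab2, had 150.9 and 160.3 RPKM, and mxl-3, a repressor of lysosomal lipase genes, had 147.3 and 120.8 RPKM. hlh-30, the counterpart of TFEB that activates lysosomal genes, was lower, at 25.3 and 29.2 RPKM. The lowest were flcn-1 with 15.4 and 14.3 RPKM, and the tethering genes vps-41 with 9.04 and 8.81 RPKM and vps-18 with 8.47 and 8.22 RPKM. rbc-1, a rabconnectin, of a family that in other animals helps assemble the V-ATPase, had 7.61 and 8.11 RPKM.

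By position, 11 of the 15 proteases were on chromosome V, which holds 24.2% of all placed genes, and 7 of the 20 V-ATPase genes on chromosome IV, which holds 16.6%. A pair of V-ATPase genes lay side by side on the same strand at 2 places, both known as operons, in which genes are transcribed together. vha-1 (III, 9781254 to 9781763) and vha-2 (III, 9782164 to 9783224) were 400 bp apart, and vha-2 was 2.52 ± 0.054 times as high as vha-1 (SD, n = 2). vha-11 (IV, 2307815 to 2314567) and vha-3 (IV, 2315460 to 2315945) were 892 bp apart, and vha-11 was 1.08 ± 0.017 times as high as vha-3 (SD, n = 2). The 2 pairs therefore differed in how close their levels were, with the doubt over vha-2 and vha-3 reads standing beside both ratios.

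Between the 2 replicates, levels of these genes differed little. None of the 43 genes at 1 RPKM or more differed beyond 2-fold on the log2(RPKM + 1) scale, against 0.713% of all genes at that level. With so low a share, a count of 0 among 43 does not set these genes apart. The log2(RPKM + 1) scale understates ratios of low genes. The log2 ratio of replicate 2 to replicate 1 ran from -0.22 for vha-18 to 0.21 for cpr-5, with a median of 0.03 and an SD of 0.09 over the 44 genes. Over all genes at 1 RPKM or more the median was -0.02 with an SD of 0.25, and over those at 100 RPKM or more it was 0.02 with an SD of 0.12. Replicate 2 was the higher one for 28 of 44 genes (63.6%), against 44.2% of all genes with a mean of at least 1 RPKM and 57.7% of those with at least 100 RPKM. Of the 31 genes here at 100 RPKM or more, 22 (71.0%) were higher in replicate 2.

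Exact 95% Poisson intervals of the 2 replicates were separate for 10 of the 44 genes (22.7%), against 7.65% of all genes at 1 RPKM or more. All 10 had at least 100 RPKM, where intervals are narrow: they were 32.3% of the 31 genes at that level, beside 29.9% of all genes there. The share thus lay near that of other abundant genes. asp-1, asp-6, asp-5, vha-2, cpr-1, vha-13 and cpr-5 were higher in replicate 2, and asp-4, cpz-2 and vha-5 were lower. The aspartyl proteases, with at least 8684 reads per gene and replicate, gave 4 of these 10, while the 20 V-ATPase genes gave 3. Whether read depth accounts for that difference was not tested. Scaling to an equal sum gave a count of 11, and scaling replicate 2 to a median log2 ratio of 0 over all genes gave 17. No share of all genes under either scaling is given here, so these counts have no background beside them.

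The plot of replicate ratios shows the 43 genes at 1 RPKM or more inside the cloud of all genes. Genes with separate intervals lie to the right, where levels are high, and on both sides of 0.

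**Figure D5:**
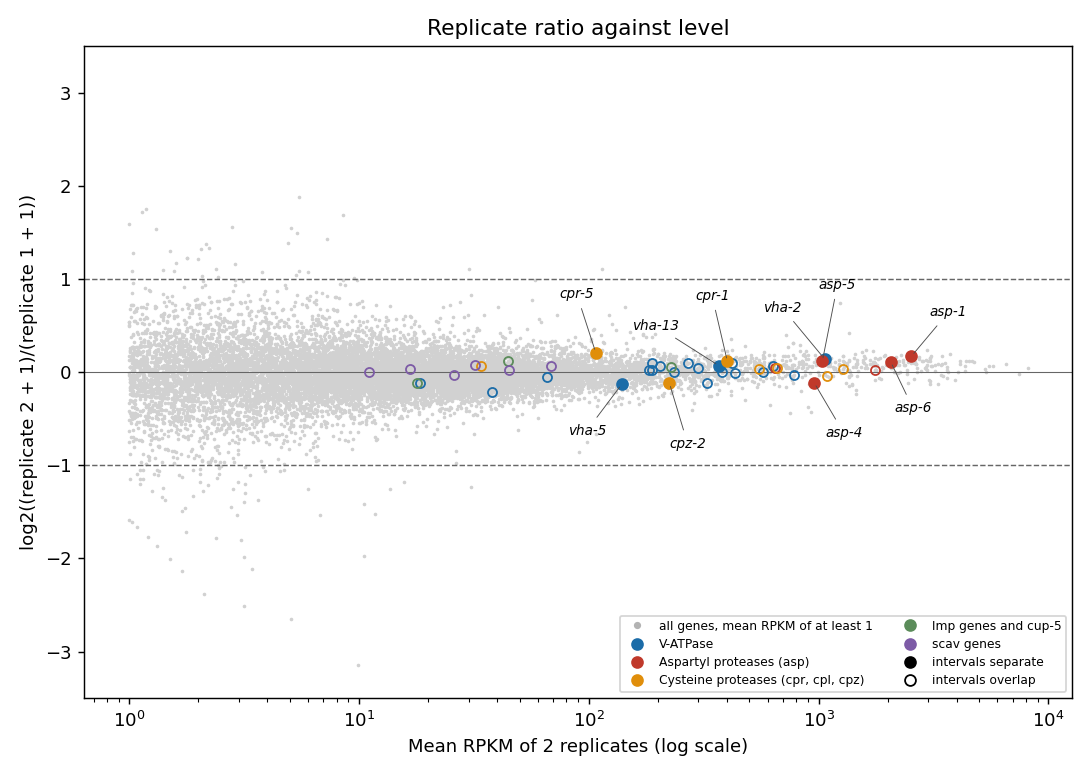
Log2 ratio of replicate 2 to replicate 1, with 1 RPKM added to both (y axis), against the mean RPKM (x axis, log scale). Grey points are all genes with a mean of at least 1 RPKM and dashed lines mark 2-fold. Filled coloured points are the 10 genes with separate Poisson intervals, which are named, and open ones are the other 33 genes.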

How the data were processed

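Total RNA of 2 samples of 1 strain was made into TruSeq libraries, per the labels' protocols. CASAVA 1.8.2 is named in the submitters' processing notes. Which aligner, counting method, annotation and build were used is not given in the sources used here. Per the file headers, the deposited values are RPKM, 1 per gene and replicate. Other values were computed from these RPKM: means, SDs, ratios, shares and log2(RPKM + 1) ratios. RPKM shares 1 total per library, so a few abundant genes shift all others.

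Commas in values of 1000 or more were removed (205 and 208 cells). Of 19990 rows, 104 naming part of a gene and 12 sharing a name were left out, so 19874 genes remained. Release 115 of the WBcel235 annotation held 16043 of them by symbol and 2846 by sequence name, and 985 had no match. All 44 members matched. Positions and coding lengths are those of WBcel235, which may differ from the authors' build.

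RPKM times coding length came out whole within 0.1 read in 87.6% of the 4169 low values of replicate 1, and in 88.1% of the 3400 low values of replicate 2 (at most 20 reads each). Chance alone would give 20%. Reads are such estimates. Intervals are exact Poisson intervals at 95%. With 1 group no test between groups was possible. No test between genes was run, and a difference between genes was set against the larger replicate SD. The code was checked on simulated data.

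Members and lists were chosen with earlier results of these data known. The text names all V-ATPase, lmp and scav genes and cup-5, the 6 highest and 3 lowest of each protease family, members beyond 2-fold or with separate intervals, and the 3 highest and 3 lowest of each further list. Other named genes (hlh-30, neighbours in a cluster and genes under sequence names) were chosen with their values seen. Alternatives were both scalings, each replicate alone, other limits, filters and pseudocounts, summed paralogs and added genes under sequence names. Software was Python 3.11.15 with scipy 1.17.1, pandas 2.3.3, numpy 2.4.6 and, for figures, matplotlib 3.10.9.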

Additional observations from a re-analysis of the deposited data

How the results depend on the processing

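Of 73 alternative values for 13 results, 61 kept the value within the replicate SD or, for counts, within 1.5 times, and 12 did not. Part of the 61 could not have moved, so the tally does not measure robustness. With 2 replicates, the median or share in either replicate alone lies within the SD of their mean. Scaling a whole library leaves shares within it unchanged. Only the median log2 ratio could have changed sign, as the other results cannot be negative, and it stayed above 0. The order of group medians turned under 1 alternative. Adding the genes listed under sequence names moved the median of V-ATPase genes to 271.5 RPKM, that of aspartyl proteases to 216.6 RPKM (from 1399 RPKM), the share of summed RPKM to 2.23% and the median log2 ratio of the members to 0.038. The cysteine protease median stayed at 401 RPKM, so that the aspartyl median was then the lowest of the 3 and not the highest. It moved because 7 of the 9 genes added lay below 100 RPKM. Summing vha-2 and vha-3 gave a V-ATPase median of 297.4 RPKM, and summing all paralogs of 1 subunit gave 375 RPKM. Leaving out cpr-2, the 1 gene below 1 RPKM, moved the cysteine protease median to 475 RPKM. Scaling to an equal sum gave a median log2 ratio of 0.00065 and 11 genes with separate intervals. Scaling to a median log2 ratio of 0 over all genes gave 0.055 and 17 such genes. No share of all genes under these scalings stands beside the 11 or the 17. In place of intervals, 6 of the 31 genes at 100 RPKM or more (19.4%) lay beyond 1 SD of all genes at that level and 0 beyond 2 SD, against 24.9% and 4.15% of all genes there, an alternative chosen after seeing the data. The 2 scalings shifted all log2 ratios by -0.03 and 0.03. No paired analysis was possible because both samples belong to 1 group. Limits are the single strain, the 2 replicates, the unknown counting of reads shared by close copies, and the depth, which matters for cpr-2 and the lowest asp genes.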
